A study of Homo sapiens with 7 samples.

Results

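FBXL proteins are the F-box proteins with leucine-rich repeats, the parts of a ubiquitin ligase that choose what is to be degraded. Expression is described here for 9 FBXL genes (FBXL7, FBXL17, FBXL2, FBXL4, FBXL5, FBXL14, FBXL16, FBXL18 and FBXL20) of the 60234 genes in the deposited table. The genes were taken by symbol. FBXL7 and FBXL17 had been picked because their levels fell in the comparison described below, so their changes are given as a description and were not tested. The other 7 were chosen by family, and their changes were tested across all genes.

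In an SCF ubiquitin ligase, the scaffold CUL1 carries the RING protein RBX1 at one end and the adaptor SKP1 at the other. SKP1 binds the F-box of an exchangeable F-box protein, and in FBXL proteins the leucine-rich repeats usually hold the substrate. The complex is switched on when NEDD8 is attached to CUL1 and is switched off by the COP9 signalosome. In heart muscle this system takes part in the turnover of sarcomere proteins, in iron balance and in the clearance of mitochondria.

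The cells were cardiomyocytes differentiated from WTC-11, an established human induced pluripotent stem cell line, and matured for 35 days. They then took up, passively and over 96 h, either a scrambled antisense oligonucleotide (ASO) or an ASO against MYH7B, each at 2 uM. ASOs are synthetic oligonucleotides made to bind 1 RNA by base pairing. There were 3 libraries with the scrambled ASO (replicates 1 to 3) and 4 with the MYH7B ASO (replicates 1 to 4), all of poly-A RNA from this 1 line. No label says that the libraries of a group came from separate differentiations, so p-values measure the spread between these libraries, which may be technical. The comparison asks which other transcripts differ between cells given the MYH7B ASO and cells given the scrambled ASO. The labels name no other MYH7B ASO. Effects of lower MYH7B RNA and other effects of this ASO therefore cannot be told apart.

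Levels are in TPM, a share of each library's transcripts that corrects for transcript length and so allows genes to be compared. The values of MYH7B ASO replicate 1 were deposited out of step with the gene names. They were put back in step with the gene order of GENCODE release 29 and are given beside the results, and the main comparison used the other 6 libraries, 3 in each group. MYH7B itself measured 23.0, 36.5 and 25.1 TPM in the scrambled group and 9.30, 5.65 and 6.31 TPM in MYH7B ASO replicates 2 to 4, and 1.29 TPM in replicate 1. Genes encoded in mitochondria took 27.4% to 33.6% of TPM in the 6 libraries and 17.2% in replicate 1. All 8 cardiomyocyte markers examined, TNNT2 and ACTN2 among them, reached 1 TPM, with sums of 4564 to 5843 TPM in the scrambled group and 3931 to 6082 TPM in MYH7B ASO replicates 2 to 4. The sum in replicate 1 was 3514 TPM, below the 6 other libraries. None of the 8 was called (limma, adjusted p under 0.05), but this list split. ACTN2, TNNI3 and RYR2 were lower in each of MYH7B ASO replicates 2 to 4 and TNNI1 was higher. RYR2 went from a mean of 34.1 to 16.3 TPM (limma adjusted p = 0.0536) and is called lower in the authors' deposited table. MYH7 went from 962 to 394 TPM with overlapping groups (limma adjusted p = 0.148). Of 4 endothelial markers 3 reached 1 TPM in at least 1 of the 6 libraries, with sums of 7.61 to 9.52 and 7.77 to 10.4 TPM in these groups, and VWF did not. Of 4 pluripotent cell markers 2 did, with sums of 2.66 to 4.50 and 2.87 to 3.91 TPM, and NANOG and LIN28A did not. Of 4 endoderm and liver markers 2 did, and AFP and SOX17 did not. Their sums were 4.03 to 6.50 and 10.4 to 15.5 TPM, mostly APOA1, an apolipoprotein gene that was higher in every MYH7B ASO library (limma adjusted p = 0.0706).

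The windows just before the annotated starts of FBXL7 and FBXL17, the genes with the falls, and of FBXL14, the only member higher in every MYH7B ASO library, are shown because the data contrast these genes. Each is the 250 bases upstream of the RefSeq transcript start on GRCh38.p14, read 5′ to 3′ on the strand of the gene. They lie at chr5:15499930-15500179 (plus strand), chr5:108382099-108382348 (minus strand) and chr12:1594843-1595092 (minus strand). The GENCODE 29 bounds of FBXL14 end at position 1594165, so the RefSeq start used for its window is not the GENCODE start. Capitals mark GC boxes (GGGCGG on either strand).
FBXL7: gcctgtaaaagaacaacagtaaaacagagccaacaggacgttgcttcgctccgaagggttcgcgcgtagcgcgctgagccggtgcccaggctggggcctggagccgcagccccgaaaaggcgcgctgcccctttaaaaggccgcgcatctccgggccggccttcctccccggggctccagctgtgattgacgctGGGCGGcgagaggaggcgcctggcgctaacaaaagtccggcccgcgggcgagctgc
FBXL17: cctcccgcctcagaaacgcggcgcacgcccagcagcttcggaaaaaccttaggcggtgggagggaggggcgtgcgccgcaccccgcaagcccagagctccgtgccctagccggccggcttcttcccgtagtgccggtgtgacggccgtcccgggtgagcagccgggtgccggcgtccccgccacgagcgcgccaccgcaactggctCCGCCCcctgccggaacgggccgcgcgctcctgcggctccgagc
FBXL14: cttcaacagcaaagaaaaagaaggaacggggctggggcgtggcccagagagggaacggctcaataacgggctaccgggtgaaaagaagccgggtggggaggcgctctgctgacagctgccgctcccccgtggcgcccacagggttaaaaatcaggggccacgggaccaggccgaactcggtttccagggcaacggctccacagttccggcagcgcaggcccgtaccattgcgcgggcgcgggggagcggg
The FBXL7 and FBXL17 windows each held 1 GC box and the FBXL14 window none. The windows of FBXL2, FBXL4 and FBXL5, members that were not called lower or higher, held 3, 5 and 2, and that of FBXL20 held none. GC boxes in these windows thus did not set the genes with the falls apart from the other members. The windows of FBXL2 and FBXL5 lie inside the GENCODE 29 bounds of their genes, and that of FBXL4 lies partly inside. The RefSeq starts used for them are thus not the GENCODE starts either. Among windows of the same length before 27305 genes, 42.3% held a GC box. The TEAD-binding core GGAATG, searched because TEAD3 is the gene whose levels followed FBXL7 most closely, was in none of the 7 member windows that the table holds and in 11.9% of all windows. TATAAA was likewise in none of the 7 and in 11.1% of all. CCAAT was in the windows of FBXL2 and FBXL20 and in 33.0% of all. All motifs were searched on both strands, and no motif other than the GC box occurs in the 3 windows printed. The windows were rich in CpG dinucleotides, with 27 in FBXL7, 35 in FBXL17 and 22 in FBXL14 against a median of 11 over all genes, and 67.2%, 75.2% and 66.0% of their bases were G or C against a median of 58.0%.

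In the scrambled ASO libraries the 9 genes ranged from 39.7 TPM down to 0.74 TPM. FBXL5 was highest, followed by FBXL7 and FBXL17. FBXL2, FBXL20 and FBXL4 came next, at 8.56 ± 1.63, 7.72 ± 1.37 and 6.72 ± 0.43 TPM (SD, n = 3). These 3 genes could not be put in order, because neighbours among them overlapped between libraries. Every other step of the order, on to FBXL18, FBXL14 and FBXL16, held in all 3 scrambled libraries without overlap.

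FBXL7 (ENSG00000183580.10) encodes a subunit described to direct the degradation of Aurora kinase A and of survivin. The scrambled ASO replicates 1 to 3 held 24.2, 31.6 and 28.5 TPM of it, against 7.79, 6.91 and 6.42 TPM in MYH7B ASO replicates 2 to 4. Every MYH7B ASO library lay far below every scrambled one. The means were 28.1 ± 3.71 and 7.04 ± 0.69 TPM (SD, n = 3 each), which is 3.99 times less with the MYH7B ASO. On the log2(TPM + 1) scale the difference was -1.85, the 70th most negative of 15988 genes tested. Replicate 1 of the MYH7B ASO group, left out of the main comparison, had 5.81 TPM, below all 6 other libraries. It was also the lowest library for FBXL17, FBXL2, FBXL4, FBXL5 and FBXL20, so nothing particular to FBXL7 is read from this. The gene lies on chromosome 5, positions 15500196 to 15939795 (GENCODE 29, GRCh38), and holds MIR887 and the antisense transcript AC010638.1, both at 0 TPM in the 6 libraries.

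FBXL17 (ENSG00000145743.16) encodes a subunit of dimerization quality control, in which wrongly paired BTB-domain proteins are removed. It is also described to act on SUFU, a Hedgehog pathway repressor. It measured 17.1, 19.0 and 15.6 TPM with the scrambled ASO and 3.62, 3.04 and 3.54 TPM in MYH7B ASO replicates 2 to 4. The groups were again far apart, with means of 17.2 ± 1.73 and 3.40 ± 0.32 TPM (SD, n = 3 each), or 5.07 times less. The log2 difference was -2.05, the 46th most negative. Replicate 1 had 2.42 TPM, the lowest of the 7 libraries. FBXL17 is also on chromosome 5, on the other arm, at positions 107859035 to 108382098, and no other annotated gene overlaps it.

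Of all genes tested, 1.48% were called lower (limma, adjusted p under 0.05), 0.181% were called higher, and 14.1% had every MYH7B ASO library below every scrambled one. FBXL7 and FBXL17 are among the lower genes by the way they were chosen, so nothing is read from these shares for them. The authors' deposited table, made from unnamed libraries of this series, lists shrunken log2 fold changes of -1.74 for FBXL7 and -1.92 for FBXL17. It calls 5.69% of its genes lower. In bulk RNA, fewer cells of a type and less RNA per cell cannot be told apart.

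**Figure D1:**
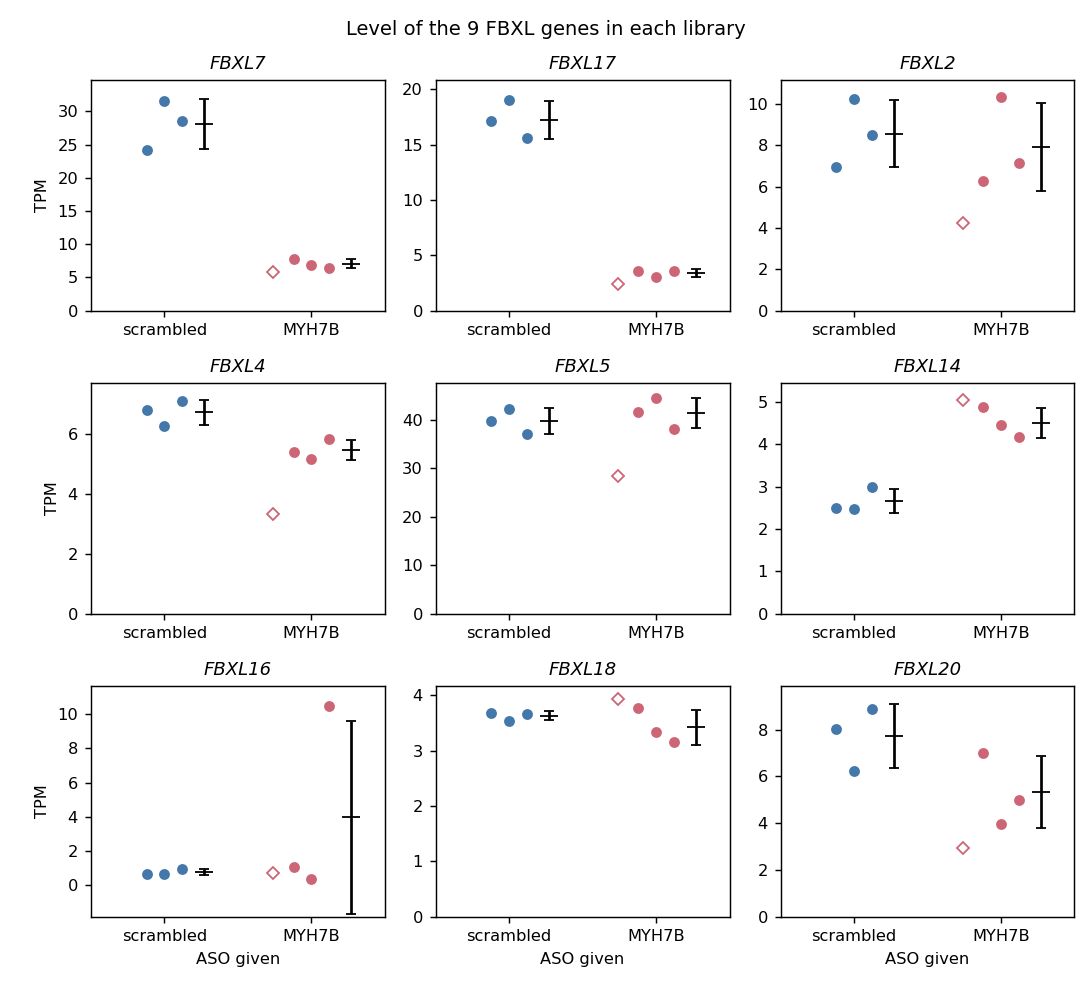
TPM of each gene in each library, with filled points for the 6 libraries of the main comparison, open diamonds for MYH7B ASO replicate 1, and bars for the mean and SD of the filled points (n = 3). FBXL7 and FBXL17 show a gap between the groups, FBXL14 a smaller gap in the other direction, and FBXL16 a single library at 10.5 TPM (the lower end of its SD falls below 0).

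Markers of other cell types moved in the same comparison. The 8 fibroblast markers summed to 2881 to 5173 TPM with the scrambled ASO and to 1344 to 2071 TPM in MYH7B ASO replicates 2 to 4. The list split: COL1A2 and LUM were called lower and none of the 8 higher (limma, adjusted p under 0.05), but PDGFRA and TCF21 were higher in each of these MYH7B ASO libraries. Their log2 differences were 0.60 and 0.71 (limma adjusted p = 0.152 and 0.168). Of the 8, 4 are called lower and 2 higher in the authors' deposited table. The 4 smooth muscle markers summed to 934 to 1330 TPM and 543 to 723 TPM, with MYH11 called lower (limma, adjusted p = 0.00599). In MYH7B ASO replicate 1 these sums were 4069 and 1075 TPM, inside the scrambled range, but MYH11 was at 13.4 TPM there, within the 7.64 to 15.6 TPM of the other MYH7B ASO libraries. The part of these cell types in the falls of FBXL7 and FBXL17 was not tested. The 3 epicardial markers overlapped between the groups, at 282 to 339 and 214 to 331 TPM.

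Among the 7 members chosen by family, none was called in either direction (limma on 6 libraries, adjusted p under 0.05), against 1.66% of all genes. None was called with 7 libraries either (limma), against 1.07%. At an unadjusted p under 0.05 there was 1, FBXL14, where 15.2% of all genes (2435 of 15988) were under that value in limma. The groups did not overlap for 1 of the 7 in the lower direction (FBXL4) and 1 in the higher (FBXL14), against 14.1% and 7.11% of all genes. Their median log2 fold change was -0.07, beside -0.04 for all genes tested. The values of the individual genes follow, by what each subunit is known to act on.

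FBXL14 is best known for the turnover of SNAI1 and related drivers of epithelial-mesenchymal transition. It stood at 2.50, 2.48 and 2.99 TPM with the scrambled ASO and 4.88, 4.46 and 4.18 TPM in MYH7B ASO replicates 2 to 4. All 3 MYH7B ASO libraries were above all scrambled ones, and replicate 1 was higher still at 5.06 TPM. The means differed by a factor of 1.69, and the log2 difference of 0.59 had a 95% interval of 0.10 to 1.08. After adjustment over all genes it was not called (limma adjusted p = 0.237 on 6 libraries and 0.227 on 7). The authors' deposited table gives 0.67 as its shrunken log2 change, at an adjusted p of 0.0137, and calls 3.02% of its genes higher. The gene, on chromosome 12 at positions 1565993 to 1594165, lies within the bounds of WNT5B on the opposite strand. WNT5B had 5.94 to 19.8 TPM over the 6 libraries with no gap between the groups. No 31-base stretch of the annotated FBXL14 transcripts occurs in annotated transcripts of another gene, WNT5B included, on either strand. The counting is not stated to use strand, so only reads of WNT5B from outside its annotated transcripts cannot be assigned with certainty.

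FBXL5 senses iron and oxygen through a hemerythrin-like domain and removes iron regulatory protein 2, the product of IREB2. Its level was 39.8, 42.3 and 37.1 TPM with the scrambled ASO and 41.6, 44.5 and 38.2 TPM in MYH7B ASO replicates 2 to 4. The groups interleaved, with a log2 difference of 0.06 and a 95% interval of -0.26 to 0.37 (limma adjusted p = 0.881). Replicate 1, at 28.4 TPM, was below all the others, and with it the difference was -0.07 (limma adjusted p = 0.888). FBXL5 was thus the most abundant member in every library. IREB2 measured 32.3 ± 3.51 and 33.0 ± 3.18 TPM (SD, n = 3 each).

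Genes under iron regulatory proteins or handling iron were followed beside FBXL5. None of 8 was called (limma, adjusted p under 0.05), and 3 had an unadjusted p under 0.05 (15.2% of all genes). FTH1 and FTL, the ferritin chains, measured 1735 ± 397 and 712 ± 215 TPM with the scrambled ASO and 1794 ± 276 and 755 ± 94.5 TPM with the MYH7B ASO (SD, n = 3 each). TFRC, the transferrin receptor, measured 55.3 ± 9.85 and 64.9 ± 8.25 TPM. The 3 genes with an unadjusted p under 0.05 were picked out after their values were seen. They were SLC40A1, the iron exporter ferroportin, with a log2 difference of 0.55 (limma adjusted p = 0.205), SLC11A2, an iron importer, with -0.67 (limma adjusted p = 0.161), and EPAS1, a hypoxia factor, with -0.63 (limma adjusted p = 0.135). With 7 libraries their differences were 0.51, -0.77 and -0.18 (limma adjusted p = 0.280, 0.158 and 0.879). EPAS1 was at 37.1 TPM in MYH7B ASO replicate 1, above every scrambled library, so its fall was not seen there. The authors' deposited table gives these 3 genes adjusted p-values of 0.0191, 0.0914 and 0.0230.

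FBXL4 sits on the mitochondrial outer membrane and restrains mitophagy by removing BNIP3 and BNIP3L. It was at 6.79, 6.26 and 7.10 TPM with the scrambled ASO and at 5.41, 5.15 and 5.82 TPM in MYH7B ASO replicates 2 to 4. The groups did not overlap, and replicate 1 was lower again at 3.34 TPM. The log2 difference of -0.26 (95% interval -0.66 to 0.14) did not pass (limma adjusted p = 0.544). BNIP3 measured 141 ± 8.73 and 169 ± 23.9 TPM, and BNIP3L 59.7 ± 0.94 and 57.7 ± 2.82 TPM (SD, n = 3 each), neither called (limma adjusted p = 0.440 and 0.888).

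FBXL2 and FBXL20 are close paralogs, the first a lipid-anchored subunit that acts on D-type cyclins, the second described to act on the lipid kinase PIK3C3. FBXL2 was at 6.97, 10.2 and 8.50 TPM with the scrambled ASO and 6.28, 10.3 and 7.13 TPM in MYH7B ASO replicates 2 to 4. These ranges lay over each other, with a log2 difference of -0.11 (95% interval -0.64 to 0.41, limma adjusted p = 0.858). FBXL20 was at 8.05, 6.22 and 8.90 TPM with the scrambled ASO and 7.01, 3.96 and 5.004 TPM in MYH7B ASO replicates 2 to 4. Its groups overlapped through MYH7B ASO replicate 2, and the log2 difference was -0.48 (95% interval -1.02 to 0.06, limma adjusted p = 0.387). Replicate 1 was the lowest library for both, with 4.25 TPM of FBXL2 and 2.95 TPM of FBXL20. CCND2, a D-type cyclin, measured 81.6 ± 4.77 and 66.3 ± 1.16 TPM (SD, n = 3 each, limma adjusted p = 0.302).

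The paralogs could be told apart by short reads. Of 11075 distinct 31-base stretches in FBXL20 transcripts of GENCODE 29, 46 also occur in another member. For FBXL2 this was 11 of 8001. FBXL7, FBXL5 and FBXL14 shared no 31-base stretch with transcripts of any other gene, and FBXL18 had the highest share, 12.7%. Overlapping transcripts on the other strand were expressed at FBXL2 and FBXL5, whose ends overlap UBP1 (12.98 to 20.4 TPM) and FAM200B (33.7 to 46.7 TPM).

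FBXL18, described to act on FBXL7 itself, had among the steadiest values, at 3.69, 3.53 and 3.66 TPM with the scrambled ASO and 3.76, 3.34 and 3.16 TPM in MYH7B ASO replicates 2 to 4. The log2 difference was -0.07 (95% interval -0.54 to 0.41, limma adjusted p = 0.913), and replicate 1 had 3.93 TPM. FBXL16, which binds CUL1 poorly and is mainly known from brain, was near the bottom of the range at 0.65, 0.64 and 0.94 TPM with the scrambled ASO. It had 1.05 and 0.36 TPM in MYH7B ASO replicates 2 and 3 and 10.5 TPM in replicate 4. A single library therefore carried the log2 difference of 0.87 (95% interval -0.78 to 2.53, limma adjusted p = 0.612). Without it the gene fell below the mean of 1 TPM needed for testing. Replicate 1 had 0.72 TPM.

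**Figure D2:**
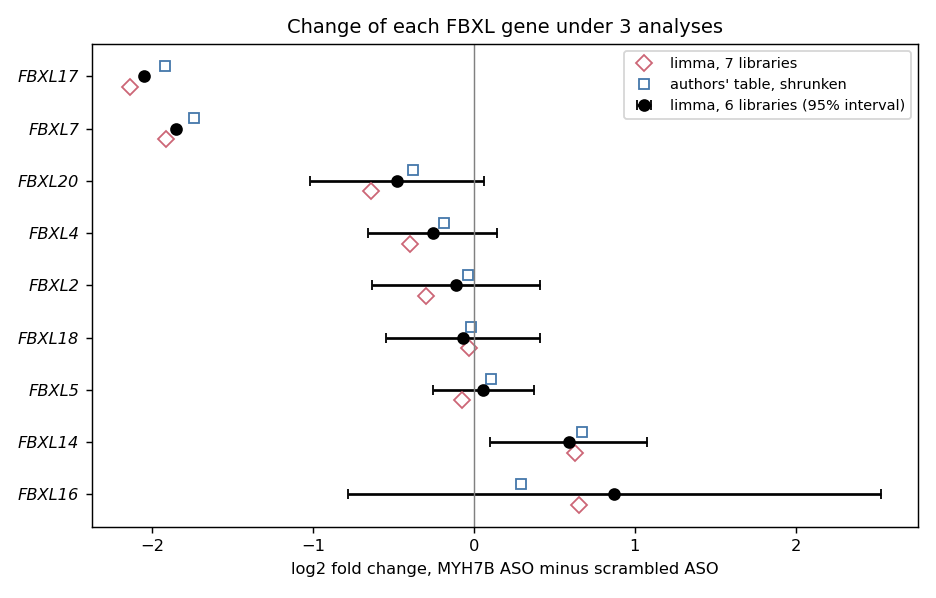
Log2 fold change of each gene, from limma on 6 libraries (filled points, with 95% intervals for the 7 tested members), from limma on 7 libraries (open diamonds) and from the authors' deposited table (open squares, shrunken). FBXL17 and FBXL7 lie near -2 in all 3 analyses, and the interval of FBXL14 is the only one of the 7 that leaves out 0.

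Summed over the 9 genes, the scrambled ASO libraries held 115 ± 6.49 TPM and MYH7B ASO replicates 2 to 4 held 82.5 ± 1.33 TPM (SD, n = 3 each). The 7 members other than FBXL7 and FBXL17 summed to 69.8 ± 1.71 and 72.0 ± 2.01 TPM. FBXL7 made up 24.4% ± 2.01 of the sum with the scrambled ASO and 8.55% ± 0.97 with the MYH7B ASO, and FBXL17 15.0% ± 1.04 and 4.12% ± 0.39. FBXL5 went from 34.5% ± 1.77 to 50.3% ± 4.42 of the sum with little difference in its own level. In MYH7B ASO replicate 1 the 7 others summed to 48.6 TPM, lower than in any other library, and FBXL7 and FBXL17 made up 10.2% and 4.25% of the sum.

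**Figure D3:**
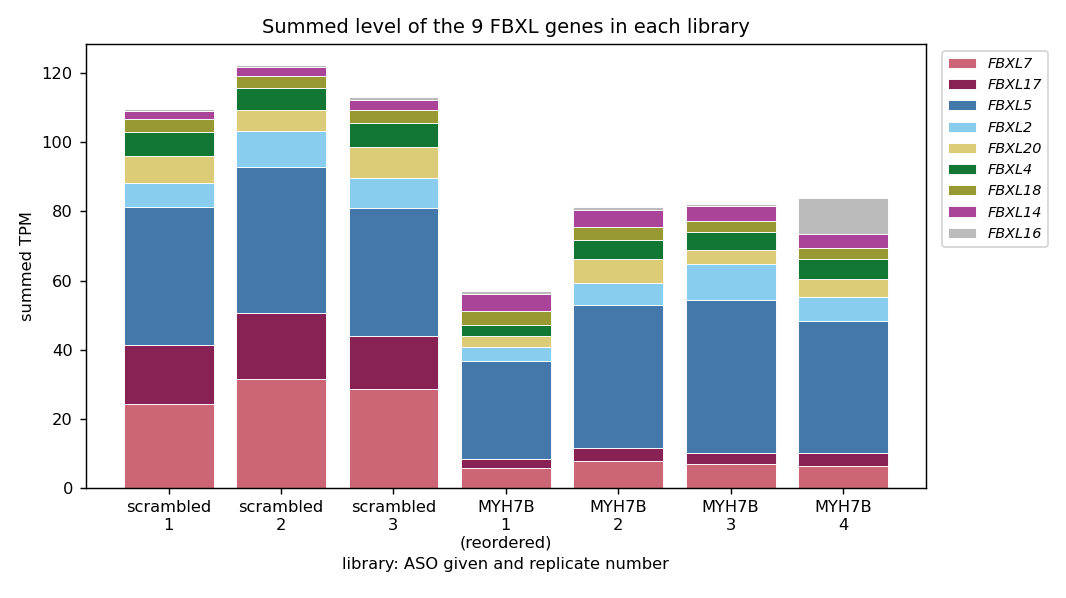
Summed TPM of the 9 genes in each library, stacked by gene, with MYH7B ASO replicate 1 in its reordered form. The FBXL7 and FBXL17 layers at the base are thin in all 4 MYH7B ASO libraries, while the FBXL5 layer is the thickest from replicate 1 (28.4 TPM) to replicate 3 (44.5 TPM).

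FBXL7 and FBXL17 also shared a large span, the length of the gene from its first to its last annotated base. Span was not a criterion in choosing them. Falls were more frequent among long genes, as given below, so a choice by fall favours long genes. FBXL17 spans 523.1 kb and FBXL7 439.6 kb. FBXL20 and FBXL2 follow with 149.9 and 126.6 kb, then FBXL18 (82.5 kb), FBXL4 (79.5 kb), FBXL5 (77.1 kb), FBXL14 (28.2 kb) and FBXL16 (13.3 kb). FBXL17 and FBXL7, picked for their falls, had the longest spans, and the positive log2 differences belonged to FBXL5, FBXL14 and FBXL16, which have the shortest. Between them the order was not kept, as FBXL4 was more negative than the longer FBXL2 and FBXL18. Of all protein-coding genes tested, 0.397% of those under 20 kb were called lower (limma on 6 libraries). The share was 0.631% from 20 to 50 kb, 1.35% from 50 to 100 kb, 2.4% from 100 to 200 kb and 7.83% from 200 to 400 kb. It reached 15.3% of the 307 genes spanning 400 kb or more, the class of FBXL7 and FBXL17. The median log2 difference ran in parallel from 0.10 in the shortest class to -0.66 in the longest, where the middle 50% of genes lay between -1.10 and -0.31. Both members were below that range, but they were picked for their falls, so nothing is read from this. With 7 libraries the shares were 0.175% in the shortest class and 11.6% in the longest. The span classes were chosen after the members' spans were known, and the part of gene span in the falls was not tested.

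**Figure D4:**
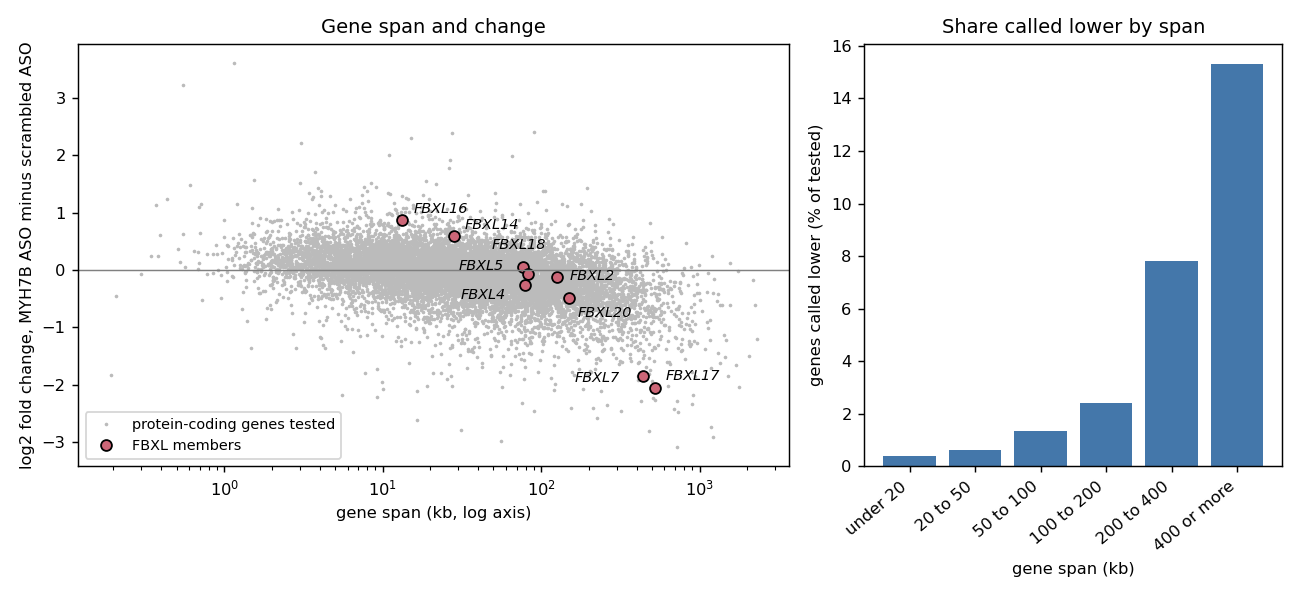
Left, log2 fold change against gene span (log axis) for the protein-coding genes tested (grey) and the 9 members (red). Right, the percentage of protein-coding genes called lower in each span class, which goes from 0.397% under 20 kb to 15.3% at 400 kb or more.

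The same ordering was looked for among F-box genes at large. Of 58 F-box genes tested, FBXL7 and FBXL17 left out, 11 spanned 100 kb or more, and 9 of these had a negative log2 difference, against 21 of the 47 shorter ones. Over all genes tested, 8767 of 15988 were negative. Over all protein-coding genes tested, the upper quartile of the log2 difference was 0.0003 from 100 to 200 kb and -0.09 from 200 to 400 kb. Most genes of such spans were thus negative too, so nothing particular to F-box genes is read from the 9 of 11. After FBXL17 and FBXL7 the longest were FBXW7 (216 kb), which recognises cyclin E, and BTRC (203 kb), which recognises β-catenin. Their log2 differences were -0.31 and -0.30 (limma adjusted p = 0.50 and 0.450). No tested F-box gene had a span between those of FBXW7 and FBXL7.

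None of the 11 tested genes of the rest of the FBXL family was called (limma, adjusted p under 0.05), and 1 had an unadjusted p under 0.05 (15.2% of all genes). The most abundant were SKP2, which removes the cell cycle inhibitor p27, with 25.5 ± 6.64 and 19.5 ± 3.22 TPM, the histone demethylase KDM2A with 23.7 ± 6.36 and 20.03 ± 1.04 TPM, and FBXL12 with 15.6 ± 1.96 and 14.2 ± 3.73 TPM. FBXL22, a cardiac subunit of the Z-disc, measured 13.7 ± 4.10 and 9.75 ± 2.79 TPM, with overlapping groups (limma adjusted p = 0.462). FBXL13 and FBXL21P were too low to test. Of 40 tested genes of the FBXO and FBXW type, none was called and 4 had an unadjusted p under 0.05 (15.2% of all genes). Among the most abundant of these, FBXO32 (atrogin-1, a muscle atrophy ligase) measured 53.2 ± 13.97 and 52.4 ± 10.9 TPM, FBXO21 51.1 ± 10.2 and 55.4 ± 8.45 TPM, and FBXO7 49.4 ± 3.81 and 53.8 ± 6.15 TPM.

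The shared core of the ligase was measured in full. None of 25 genes of the SCF core and of cullin activation was called (limma, adjusted p under 0.05), and 2 had an unadjusted p under 0.05 (15.2% of all genes). Their median log2 difference was 0.04, beside -0.04 for all genes. SKP1 measured 257 ± 26.8 and 297 ± 50.003 TPM, CUL1 31.9 ± 3.57 and 35.6 ± 4.12 TPM, and RBX1 60.0 ± 14.9 and 71.2 ± 8.66 TPM. NEDD8 was at 180 ± 44.5 and 178 ± 11.6 TPM, and UBE2D3, an E2 enzyme, at 282 ± 19.1 and 243 ± 33.8 TPM. In each library SKP1 alone was above the sum of the 9 FBXL members. None of the 16 tested substrates and partners of the members was called, and 3 had an unadjusted p under 0.05 (15.2% of all genes). AURKA and BIRC5, described substrates of FBXL7, measured 16.7 ± 3.03 and 17.9 ± 3.96 TPM and 15.6 ± 1.48 and 15.6 ± 3.83 TPM. SUFU, BACH1 and KEAP1, tied to FBXL17, had log2 differences of 0.12, -0.25 and -0.14 (limma adjusted p = 0.799, 0.536 and 0.730). These are transcript levels, and protein was not measured.

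**Figure D5:**
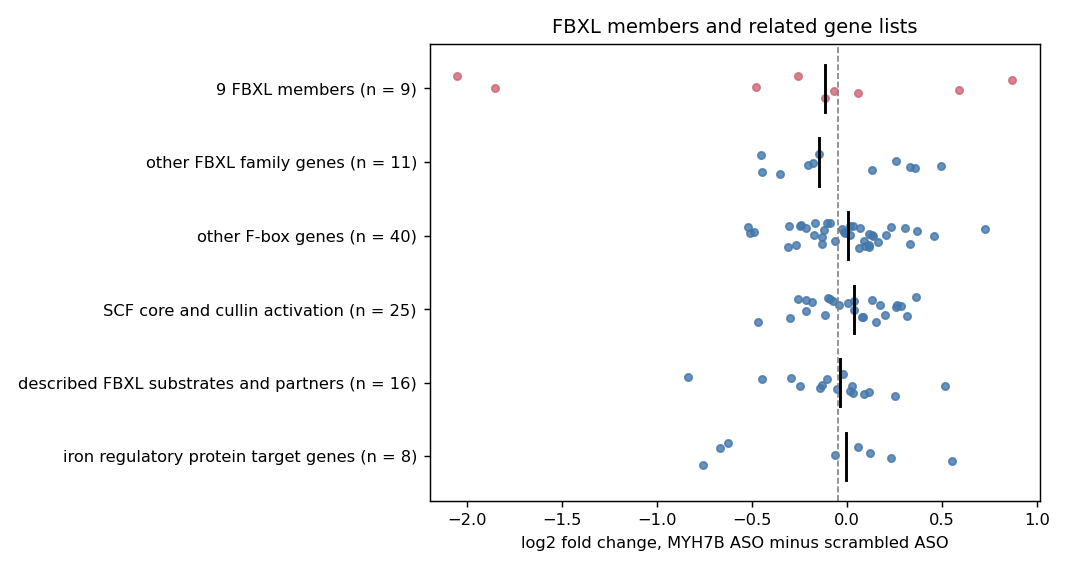
Log2 fold change of the tested genes in each list (points, spread vertically only for display), with the list median (black bar) and the median of all genes tested (dashed line, -0.04). FBXL7 and FBXL17, picked for their falls, are at -1.85 and -2.05, left of every gene of the other 5 lists.

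The genes whose levels followed FBXL7 most closely over the 6 libraries, out of 10380 genes averaging 5 TPM or more, were TEAD3 (Pearson r = 0.997), AC090204.1 (r = 0.997) and SMYD5 (r = 0.996). TEAD3, a transcription factor of the Hippo pathway, spans 23.5 kb. For FBXL17 they included TTC3 (r = 0.999), itself a ubiquitin ligase gene, and EXOC6B (r = 0.997), which spans 650 kb. TTC3 went from 93.7 to 50.004 TPM and EXOC6B from 15.4 to 4.25 TPM between the group means. These correlations run over 6 libraries that fall in 2 separate groups, so the points share the difference between the groups, and 4.80% and 4.605% of the genes compared had an r above 0.9 with FBXL7 and FBXL17.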

How the data were processed

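Poly-A RNA of 7 libraries was measured. Per the file headers and column sums, the authors deposited TPM values for 60234 genes, each column summing to 1000000, so the depth is unknown and counting error cannot be stated. The authors' deposited comparison table gives a mean normalized count (a signal), shrunken log2 fold changes, a test score and p-values. The submitters' processing notes name GRCh38.p13 and DESeq2. The aligner, the quantifier and the annotation release are not given in the sources used here. No per-sample column was left unused.

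MYH7B ASO replicate 1 was deposited with 58721 filled and 1513 blank rows. As deposited, it correlated with the other libraries at a median r of 0.408 on the log2(TPM + 1) scale. Assigned to the sorted GENCODE 29 identifiers, they reached 0.955 over 58072 genes, against 0.959 to 0.979 among the others. The order implies another annotation release, so it was kept out of the main fit.

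Genes averaging 1 TPM or more were tested with limma 3.58.1 (R 4.3.3) on log2(TPM + 1), which understates changes of low genes, with an intensity trend and Benjamini-Hochberg adjustment over all genes. A gene with an adjusted p under 0.05 is referred to as called. When the fit was tested on simulated data, a larger share of its calls was false than the adjusted p threshold states, so calls near the threshold are less certain. The alternatives were other pseudocounts, filters, scalings, variance models, replicate blocks and libraries. Tables were made in pandas 2.3.3 and plots in matplotlib 3.10.9.

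The members and lists were chosen with earlier results of these data known. Genes named were MYH7B, the members, called genes and the 3 most abundant genes of each list, and the 3 genes most like FBXL7 and FBXL17. Other genes named (partners of a member described beside it, further ligase core genes, markers, long F-box genes, FBXL22 and 3 iron genes) were chosen outside this rule, with their values known. A gene that this rule names is not reported here.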

Additional observations from a re-analysis of the deposited data

Results flagged for a closer look

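FBXL16 had 10.5 TPM in MYH7B ASO replicate 4, against 0.72, 1.05 and 0.36 TPM in replicates 1 to 3 of that group. The gap to the next library was 0.933 of the range of the 4 values, above Dixon's 95% critical value for 4 values. Of 10 genes examined in this way (MYH7B and the 9 members), this was the only one with a library so far from the rest, and chance alone would single out about 1 in 20 genes examined, so 1 of 10 is not unusual. The authors' deposited table gives FBXL16 a shrunken log2 change of 0.29, at an adjusted p of 0.231.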

How the results depend on the processing

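The counts over all genes, 236 called lower and 29 higher, moved by over 1.5 times in several fits. They were 38 and 2 with no filter on low values, 134 and 16 in limma without trend, and 153 and 17 with 7 libraries. Median-ratio rescaling gave 213 lower and 58 higher. Leaving out each library in turn gave 47 to 132 lower and 6 to 28 higher, the lowest without MYH7B ASO replicate 4. With the replicate block by title number, or by description number, 0 genes were called in either direction, where 1177 and 541, or 912 and 184, had an unadjusted p under 0.05 in limma. These block fits take the difference only from the 2 pairs that share a number. A library whose number is absent from the other group is taken up by its own block. Little is then left to estimate the spread, so nothing about pairing is read from the loss of calls. The 2 pairs sharing a number had deviations correlated at 0.08 and 0.11 by title and -0.07 and -0.04 by description, and no label says that a number marks a shared culture. The log2 difference of FBXL7 ran from -2.02 to -1.46 and that of FBXL17 from -2.31 to -1.40 over the alternatives, the smallest size with a pseudocount of 5. None of the other 7 members was called under any alternative. Signs turned for FBXL16 with the replicate block by title number (-0.094), for FBXL5 with 7 libraries (-0.073), and for FBXL2 without scrambled ASO replicate 2 (0.0089) or MYH7B ASO replicate 2 (0.019), in a range of -0.30 to 0.019 over the libraries left out. FBXL14, FBXL16 and FBXL18 could not be fitted at a minimum mean of 5 TPM. In the block by title number, MYH7B ASO replicate 4, the FBXL16 library at 10.5 TPM, did not enter the estimate. The cause of the other moves was not tested. TPM gives no depth, so the spread of 3 libraries a group limits what could be seen.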
